A study of Homo sapiens with 60 samples.

Results

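Yijin-tang, a decoction of several herbs given as a water extract, was compared at its medium dose of 100 µg/mL with the vehicle, DMSO, after 24 h in HT29 cells, a line derived from a human colorectal adenocarcinoma. The comparison takes in 6 of the 60 libraries of the series, chosen by their labels, 3 of the medium dose and 3 of the vehicle, and all 16890 genes with enough counts to be tested. RNA sequencing gave the counts, and levels are in CPM, counts scaled to a common library size and composition. The same extract at 500 and 20 µg/mL (the high and the low dose, 3 libraries each) and Soshiho-tang, another water extract of several herbs, at 100 µg/mL (2 libraries) stand beside it. A further 12 libraries of HT29 cells carried the low doses (20 µg/mL) of 4 ethanol extracts of single herbs: Schisandrae Fructus, Zizyphi Semen, Longan Arillus and Liriopis seu Ophiopogonis Tuber. They serve as a reference that shares no vehicle library, but they are treated cells. HT29 is 1 cancer cell line, so the libraries hold no immune or stromal cells by design, and the labels do not say whether replicates came from separate cultures.

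The library names put the vehicle in a library set called C1 and both decoctions in set 8, and the labels do not say what these sets mark. What the extract did and what differs between sets C1 and 8 therefore cannot be told apart when the vehicle is the control. The herb low-dose libraries are in sets 9 and 10. Against them, too, the extract cannot be told apart from library set, dose or solvent of extraction. The vehicle held 0.1% DMSO per the sample labels and 2% per the series description, and no percentage is used here for the extract libraries. Totals of the 6 libraries ran from 20299968 to 30446712 expected counts. Of the 14 epithelial markers, 13 were above 1 CPM in each of the 6 libraries, while 7 of 17 leukocyte markers were at 0 in all of them and 10 of 13 fibroblast and endothelial markers stayed under 1 CPM. LYZ, a lysozyme gene counted among the leukocyte markers, reached 1541 CPM. Mitochondrially encoded genes held 9.21 to 12.1% of the counts in the vehicle and 8.81 to 9.91% at the medium dose. Across the series, 2 libraries stand apart: replicate 2 of the low Yijin-tang dose and replicate 3 of the high Soshiho-tang dose. They enter no comparison with the vehicle given here, but they widen the shared estimate of the spread, so counts are also given without them.

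Colonic epithelial cells release chemokines, small proteins that draw neutrophils and lymphocytes, when the transcription factor NF-kB enters the nucleus and binds its kB sites. NF-kB also drives its own brakes, such as the RNA-degrading enzyme ZC3H12A, and the survival factor BIRC3. The aryl hydrocarbon receptor binds many plant compounds and turns on cytochrome P450 enzymes of the CYP1 family. Heat shock factor raises chaperones that refold proteins, and growth factor signalling raises immediate early genes such as EGR1 and FOS within minutes through CArG boxes bound by serum response factor.

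The stretches of 250 bases before the RefSeq start of 7 genes are shown because these genes stand for the pathways whose members rose or fell. The gene positions given below are from GENCODE, and the RefSeq starts of CCL20 and HSPA8 lie inside them. The sequences are the RefSeq promoters of build GRCh38.p14, written 5′ to 3′ on the strand of the gene. Capitals mark a kB-like motif (GGNNNTTCC) in CXCL1, CXCL8 and CCL20, the xenobiotic response element core (GCGTG) in CYP1A1, the heat shock element core (GAANNTTC) in HSPA1A and HSPA8, and CArG boxes in EGR1. Both strands were searched, and overlaps between motifs were not removed.
CXCL1 (chr4:73869143-73869392, plus strand): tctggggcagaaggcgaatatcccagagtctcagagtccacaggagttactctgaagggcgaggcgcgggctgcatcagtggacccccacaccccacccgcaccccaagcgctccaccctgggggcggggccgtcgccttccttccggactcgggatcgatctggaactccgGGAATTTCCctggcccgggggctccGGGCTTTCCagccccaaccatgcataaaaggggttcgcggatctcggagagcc
CXCL8 (chr4:73740319-73740568, plus strand): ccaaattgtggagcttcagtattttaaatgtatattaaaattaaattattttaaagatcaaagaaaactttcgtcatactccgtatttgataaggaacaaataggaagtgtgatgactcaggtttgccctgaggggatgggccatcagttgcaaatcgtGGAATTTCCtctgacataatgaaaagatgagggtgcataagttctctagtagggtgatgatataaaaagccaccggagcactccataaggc
CCL20 (chr2:227813592-227813841, plus strand): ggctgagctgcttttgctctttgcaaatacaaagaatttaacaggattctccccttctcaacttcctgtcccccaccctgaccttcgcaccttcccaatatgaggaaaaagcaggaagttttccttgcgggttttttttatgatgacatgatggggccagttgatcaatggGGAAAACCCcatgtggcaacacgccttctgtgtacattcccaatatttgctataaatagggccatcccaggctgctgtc
CYP1A1 (chr15:74725529-74725778, minus strand): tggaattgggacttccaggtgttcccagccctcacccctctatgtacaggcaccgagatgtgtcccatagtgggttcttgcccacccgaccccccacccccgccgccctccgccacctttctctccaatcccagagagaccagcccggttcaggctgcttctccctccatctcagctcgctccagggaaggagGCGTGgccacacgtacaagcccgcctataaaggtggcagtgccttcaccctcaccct
HSPA1A (chr6:31815293-31815542, plus strand): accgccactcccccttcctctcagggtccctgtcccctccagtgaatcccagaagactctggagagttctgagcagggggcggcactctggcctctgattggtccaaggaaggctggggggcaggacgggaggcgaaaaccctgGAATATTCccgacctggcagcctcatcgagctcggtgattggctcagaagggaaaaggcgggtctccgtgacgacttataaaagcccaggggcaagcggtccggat
HSPA8 (chr11:123062137-123062386, minus strand): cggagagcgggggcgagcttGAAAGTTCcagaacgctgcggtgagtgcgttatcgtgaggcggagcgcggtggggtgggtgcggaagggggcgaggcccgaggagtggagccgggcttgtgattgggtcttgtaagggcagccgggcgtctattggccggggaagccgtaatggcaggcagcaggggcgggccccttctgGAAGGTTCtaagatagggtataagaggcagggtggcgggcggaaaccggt
EGR1 (chr5:138465229-138465478, plus strand): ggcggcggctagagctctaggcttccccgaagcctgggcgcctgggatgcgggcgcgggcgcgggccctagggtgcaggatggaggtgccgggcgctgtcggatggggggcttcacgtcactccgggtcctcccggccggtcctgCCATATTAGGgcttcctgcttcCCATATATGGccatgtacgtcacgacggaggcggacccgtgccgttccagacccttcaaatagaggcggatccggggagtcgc
CXCL1 carries 2 kB-like matches, at 78 and 53 bases before its start, and the match in CCL20 lies on the opposite strand. HSPA8 and EGR1 carry 2 matches each. Of 27305 promoters of this length, 17.1% held the kB-like motif, 31.9% the xenobiotic core, 5.85% the heat shock core and 1.14% a CArG box. Among the 11284 promoters matched to genes tested here, the shares were 19.8%, 44.3%, 4.10% and 0.975%. Among the genes with an entry that rose in the chemokine or the secreted defence list, 8 of 10 held the kB-like motif (CXCL1, CXCL2, CXCL3, CXCL6, CXCL8, CCL20, BIRC3 and CFB), and ZC3H12A and PIGR did not. The lists were drawn up by pathway, so a high share of a pathway's motif was likely whatever these data showed. Of all called rises with an entry, 13 of 30 (43.3%) held the kB-like motif, and of all called falls 5 of 24 (20.8%). Among the 6 chaperone genes that fell, HSPA1A, HSPA1B, HSPA8 and CHORDC1 held the heat shock core, and DNAJB1 and HSPH1 did not. Among the early genes that fell and have an entry, EGR1 held CArG boxes, and FOS and BTG2 held none in this window. A match describes these letters and is no evidence of binding.

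At 100 µg/mL, 71 of 16890 genes (0.420%) passed an adjusted p of 0.05 against the vehicle in edgeR's quasi-likelihood test, 38 higher (0.225%) and 33 lower (0.195%). The rises were the larger changes: 15 genes rose at least 2-fold and none fell as far, the largest fall being 0.78 on the log2 scale. In all 71 genes the 3 medium-dose libraries lay outside the range of the 3 vehicle libraries, which over all genes was so for 9.06% in the higher and 8.96% in the lower direction. Without the 2 libraries that stand apart, 767 of 17330 genes (4.43%) passed, 404 higher (2.33%) and 363 lower (2.09%), and all 71 were among them. The count rests on single libraries: it was 26 without medium dose replicate 1, 28 without vehicle replicate 3, and 42 without vehicle replicate 1 or without medium dose replicate 3. In all 6 fits that left out 1 library, 21 of the 71 genes passed, 13 higher and 8 lower, with the chemokine genes CXCL1, CXCL3, CXCL6, CXCL8 and CCL20 among the rises and the chaperone genes DNAJB1 and HSPA8 among the falls. In bulk libraries a higher level in each cell and a larger share of cells with the transcript cannot be told apart.

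Genes of neutrophil and lymphocyte chemokines rose. Of the 77 tested genes of the NF-kB and chemokine list, 8 rose and none fell, against 0.225% and 0.195% over all genes tested. The median log2 change was 0.11 against -0.00162 over all genes tested. Of its 15 ligands, 6 rose (median 1.00). CXCL1, which attracts neutrophils (ENSG00000163739, chromosome 4, 73869393 to 73871242 in GRCh38, the build of all gene positions here), measured 2.38, 2.32 and 1.496 CPM in the vehicle and 13.98, 14.3 and 11.7 CPM at the medium dose. Every medium-dose library was well above every vehicle library, and the log2 change was 2.69 ± 0.21 (± SE, as for all log2 changes; adjusted p = 3.00e-11, n = 3 and 3). CXCL8, the neutrophil chemokine interleukin 8 (ENSG00000169429, chromosome 4, 73740506 to 73743716), measured 7.52, 8.69 and 8.66 CPM against 16.5, 16.00 and 17.3 CPM, a rise of 1.00 ± 0.13 (adjusted p = 4.94e-06). The groups were again separate, with narrow spread on both sides.

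CCL20, which draws lymphocytes and dendritic cells through CCR6 (ENSG00000115009, chromosome 2, 227805739 to 227817564), was near 0 in the vehicle, at 0.102, 0.0749 and 0.104 CPM, and at 1.26, 1.48 and 1.94 CPM at the medium dose. These values rest on 8 counts over the vehicle libraries and 108 over the medium-dose libraries. The ratio of CPM was 16.2, with an exact 95% interval of 7.93 to 38.5 that covers counting error only. The fitted log2 change was 3.97 ± 0.44 (adjusted p = 1.61e-07). CXCL6 went from 0.1701, 0.337 and 0.139 to 1.54, 0.832 and 1.36 CPM (2.53 ± 0.38, adjusted p = 8.96e-05), and CXCL3 from 1.05, 0.974 and 0.835 to 2.704, 2.497 and 2.13 CPM (1.36 ± 0.21, adjusted p = 9.02e-05). Both encode neutrophil chemokines, and in neither did a medium-dose library reach down to the vehicle. CXCL2, of the same family, rose by 1.56 ± 0.36 (adjusted p = 0.0309) from 0.544, 0.2997 and 0.417 to 1.02, 1.48 and 1.31 CPM, but did not pass when any 1 of the 6 libraries was left out (adjusted p up to 0.169). CXCL1, CXCL2 and CXCL3 are close paralogs, as are CXCL5 and CXCL6, so the split of reads between them is uncertain. CXCL5 itself had 0.136, 0 and 0 CPM in the vehicle and 0.211, 0.185 and 0.485 CPM at the medium dose, and did not pass (adjusted p = 0.35).

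**Figure D1:**
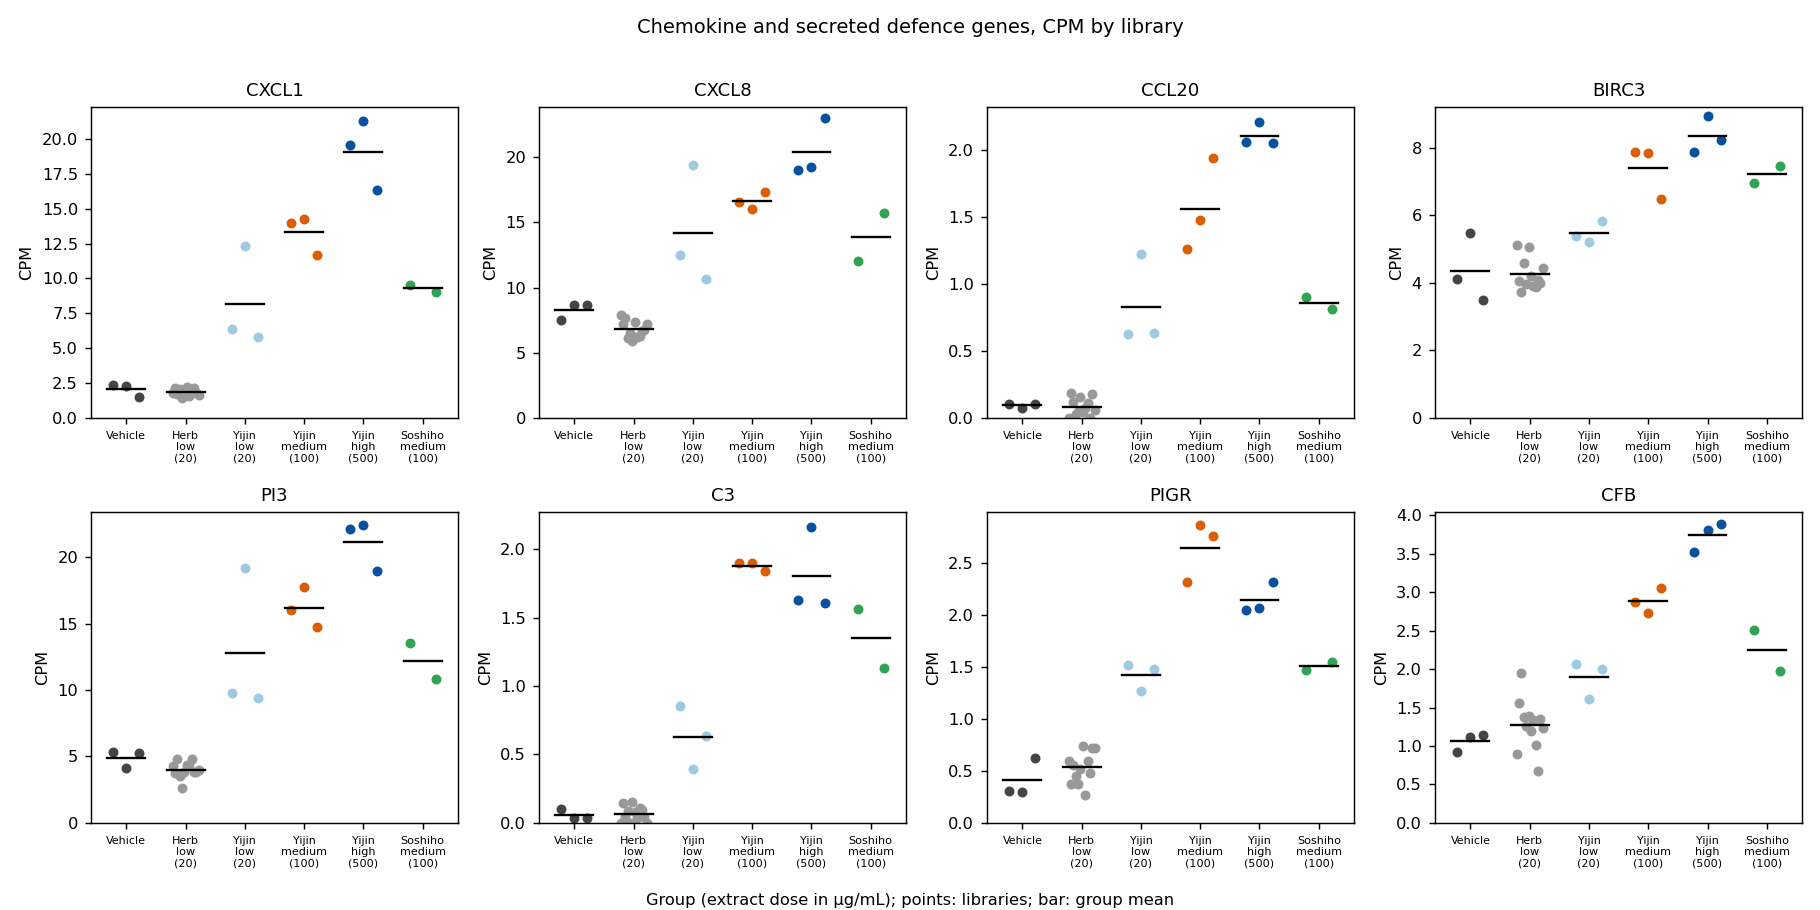
CPM (vertical axes, linear from 0) of 4 NF-kB or chemokine genes and 4 secreted defence genes by group (horizontal axes), each point 1 library and each bar the group mean. All 3 medium-dose libraries lie above all vehicle and all 12 herb low-dose libraries in each panel, for example CXCL1 at 11.7 to 14.3 CPM against 1.496 to 2.38 CPM in the vehicle.

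Beyond the ligands, 2 further genes of the list rose. BIRC3, an inhibitor of apoptosis, measured 4.12, 5.47 and 3.48 CPM in the vehicle and 7.87, 7.86 and 6.497 CPM at the medium dose (0.77 ± 0.13, adjusted p = 0.000613), and ZC3H12A, which degrades cytokine messenger RNA, measured 18.4, 16.4 and 17.7 against 27.6, 27.7 and 27.3 CPM (0.65 ± 0.09, adjusted p = 1.26e-05). In both genes every medium-dose library lay above every vehicle library. None of the 25 receptors and adaptors and none of the 12 kinases and subunits passed in edgeR's test, with medians of 0.01 and 0.06. At an unadjusted p under 0.05 in that test were 5 and 3 of them, against 1325 of 16890 over all genes. The subunit genes NFKB1 and NFKB2 had log2 differences of 0.02 ± 0.09 and 0.03 ± 0.07 (adjusted p = 0.981 and 0.966). The inhibitor gene NFKBIA had a log2 difference of 0.13 ± 0.10 (adjusted p = 0.859) and the deubiquitinase gene TNFAIP3 of 0.42 ± 0.22 (adjusted p = 0.695). MAP3K8, a kinase upstream of ERK, measured 10.4, 12.6 and 10.9 against 14.7, 13.8 and 15.03 CPM and stayed just short of the threshold (adjusted p = 0.0586). Without the 2 libraries that stand apart, 15 of the list rose, MAP3K8, RELB and the adhesion molecule ICAM1 among them (adjusted p = 0.00522, 0.0378 and 0.0151), and 2 receptors or adaptors fell.

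Genes of secreted innate defence rose as well. Of 18 tested members, 5 rose and none fell (median 0.10), against 0.225% and 0.195% over all genes. Without the 2 libraries that stand apart 6 rose and 2 fell, against 2.33% and 2.09% over all genes. In the DESeq2 test, and when only these 2 groups were fitted, 5 rose and 1 fell. The gene of elafin, a secreted inhibitor of elastase, is PI3 (ENSG00000124102, chromosome 20, 45174876 to 45176544). It measured 5.34, 4.12 and 5.29 CPM in the vehicle and 16.05, 17.8 and 14.8 CPM at the medium dose, a rise of 1.72 ± 0.18 (adjusted p = 6.07e-08). PIGR, the receptor that carries secretory antibodies across the epithelium (ENSG00000162896, chromosome 1, 206928518 to 206946466), went from 0.306, 0.2997 and 0.626 to 2.32, 2.87 and 2.76 CPM (2.67 ± 0.32, adjusted p = 1.26e-06). In both genes the lowest medium-dose library exceeded the highest vehicle library by a wide margin. Complement factor B, CFB (ENSG00000243649, chromosome 6, 31945650 to 31952084), measured 0.918, 1.12 and 1.15 against 2.88, 2.73 and 3.05 CPM (1.44 ± 0.21, adjusted p = 7.29e-05).

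C3, the central complement component (ENSG00000125730, chromosome 19, 6677704 to 6730562), had 3, 1 and 1 counts in the vehicle libraries and 54, 41 and 38 at the medium dose. The ratio of CPM was 31.9 (exact 95% interval 13.3 to 99.9, counting error only), and the fitted log2 change was 4.88 ± 0.54 (adjusted p = 1.53e-07). SAA1, an acute phase protein gene with the near-identical copy SAA2, had no count in any vehicle library and 9, 4 and 10 counts at the medium dose. Against a floor of 3 counts over the vehicle group it was at least 9.20-fold higher. It passed with an adjusted p of 0.0203, but not without vehicle replicate 1, 2 or 3 or medium dose replicate 1 (adjusted p up to 0.0919). Of the 6 fits that left out 1 library, only 5 tested SAA1, and it passed in 1. LCN2, the iron-binding protein lipocalin, measured 86.4, 83.98 and 101 CPM against 129, 127 and 122 CPM without overlap, but did not pass (log2 difference 0.48 ± 0.12, adjusted p = 0.0654), and passed without the 2 libraries that stand apart (adjusted p = 0.0031). REG4, a secreted lectin gene, lay in the other direction at 23.7, 23.1 and 26.3 against 17.7, 18.6 and 18.9 CPM (adjusted p = 0.0585, and 4.70e-05 without those 2 libraries).

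A few other low-level genes rose with them. CEACAM7, a surface protein of mature colonocytes, measured 0.306, 0.2997 and 0.417 against 0.772, 0.693 and 0.9697 CPM (1.23 ± 0.27, adjusted p = 0.0321) and was the only called gene of the 23 tested absorptive and brush border genes. SPRR1B, a cornified envelope gene, rose by 1.27 ± 0.30 (adjusted p = 0.0409), and IL4I1, an amino acid oxidase gene, by 1.60 ± 0.39 (adjusted p = 0.0462). All 3 were under 1 CPM in the vehicle on average, and each call was lost in at least 4 of the 6 fits that left out 1 library: without vehicle replicate 1 or 3 or medium dose replicate 1 or 3 for all of them, with adjusted p up to 0.225, 0.287 and 0.402.

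The vehicle comparison can be set beside a reference in other library sets, the 12 herb low-dose libraries. Against them 35 of 16890 genes (0.207%) passed, 30 higher (0.178%) and 5 lower (0.0296%), and without the 2 libraries that stand apart 153 of 17330 passed (0.883%), 104 higher (0.600%) and 49 lower (0.283%). The comparisons share the medium-dose libraries and are given side by side. CXCL1 lay from 1.43 to 2.19 (median 1.83) CPM in these libraries, and the medium dose was higher by 2.83 ± 0.15 (adjusted p = 1.63e-17). CXCL8 lay from 5.87 to 7.91 (median 6.72) CPM, with a difference of 1.29 ± 0.10 (adjusted p = 1.72e-12). CCL20 lay from 0 to 0.189 (median 0.0686) CPM and C3 from 0 to 0.155 (median 0.0638) CPM, both far under the medium dose, with differences of 4.27 ± 0.31 and 5.11 ± 0.37 (adjusted p = 4.27e-13 and 4.16e-13). PI3 and PIGR differed by 2.01 ± 0.13 and 2.31 ± 0.22 (adjusted p = 1.76e-14 and 1.91e-09). By this reference 11 of the 77 NF-kB and chemokine genes and 6 of the 18 secreted defence genes were higher and none lower. LCN2 was one of them (difference 0.49 ± 0.09, adjusted p = 0.00296, and 0.0719 without medium dose replicate 1).

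**Figure D2:**
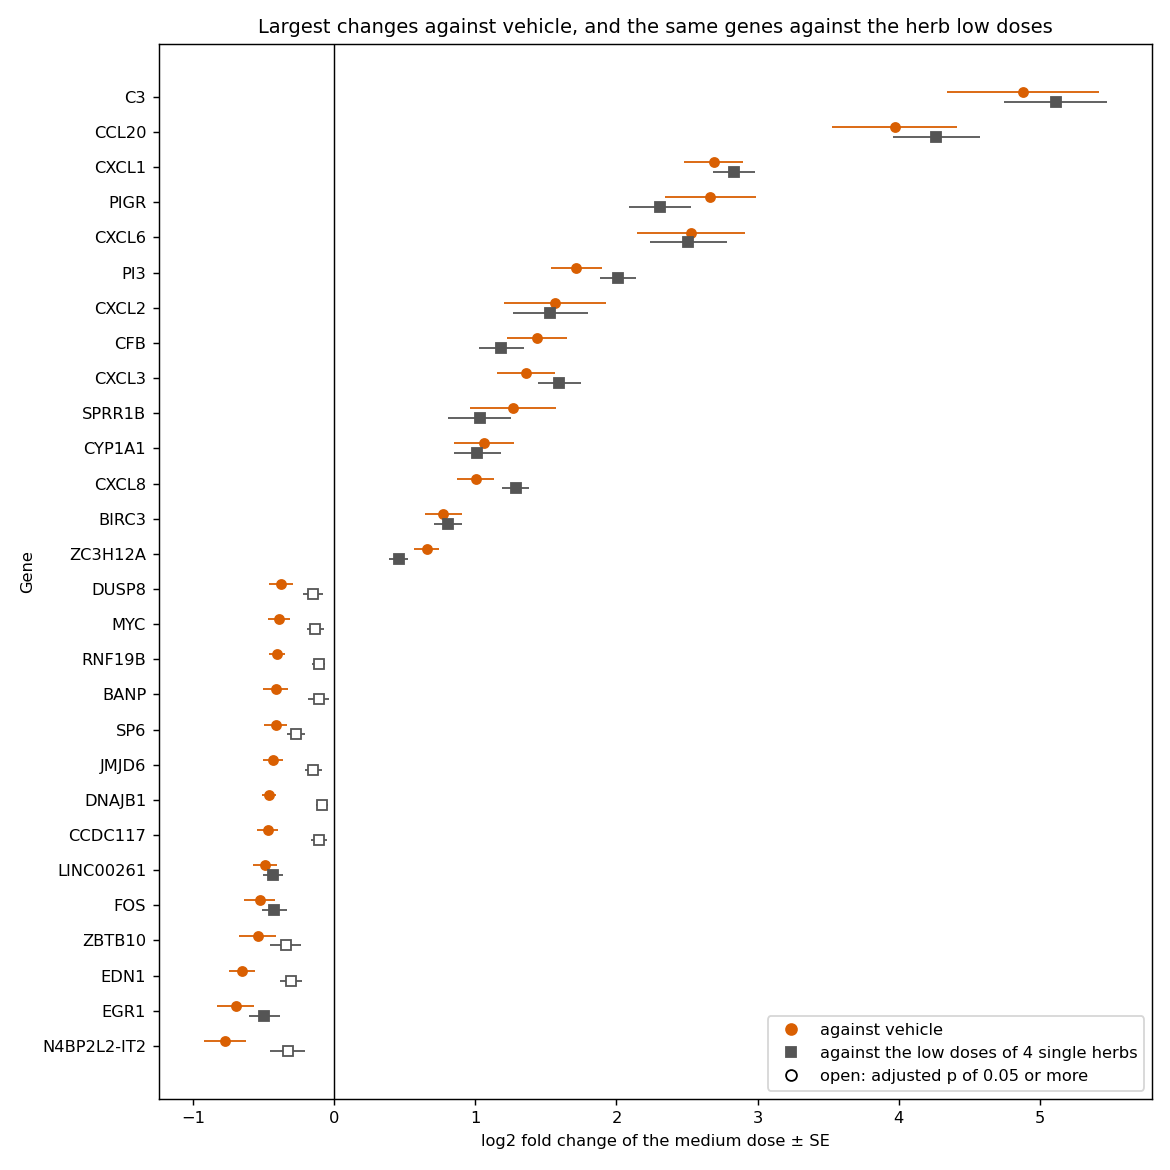
Log2 fold change of the medium dose (horizontal axis, points with SE bars) against the vehicle (circles) and against the herb low doses (squares) for the genes with the largest rises and falls (vertical axis), filled where the adjusted p was under 0.05. The risers from C3 to ZC3H12A are filled against both references, while DNAJB1, at -0.47 against the vehicle, lies at -0.09 against the herb low doses and is open there.

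The aryl hydrocarbon receptor list showed a small rise in 3 of its 10 tested target enzymes and in none of its receptor, partner or repressor genes. In all 3 of 17 rose (median 0.03), against 0.225% over all genes. CYP1A1, a cytochrome P450 that oxidises polycyclic hydrocarbons (ENSG00000140465, chromosome 15, 74719542 to 74725610), measured 0.476, 0.337 and 0.696 CPM in the vehicle and 1.02, 0.832 and 1.36 CPM at the medium dose, a rise of 1.06 ± 0.21 (adjusted p = 0.0272). These are 43 counts against 75, and the call was lost without vehicle replicate 1 or 2 or without medium dose replicate 1 or 3 (adjusted p up to 0.332). CYP1B1, a related enzyme, rose by 0.34 ± 0.06 from 46.2, 48.2 and 45.8 to 56.95, 60.6 and 59.8 CPM (adjusted p = 0.00347). ALDH1A3, which makes retinoic acid, rose by 0.40 ± 0.07 from 25.3, 24.98 and 22.2 to 30.9, 31.2 and 33.9 CPM (adjusted p = 0.000608). Neither gene's groups overlapped. Against the herb low doses the differences were 1.01 ± 0.17, 0.28 ± 0.05 and 0.37 ± 0.05 (adjusted p = 0.00147, 0.00172 and 2.54e-05), where CYP1A1 did not pass without medium dose replicate 3 (0.269) nor CYP1B1 without medium dose replicate 2 (0.0560). With no filter on low counts 1 of the list rose against the vehicle, ALDH1A3, and CYP1A1 and CYP1B1 had adjusted p of 0.0671 and 0.0721. The repressor gene AHRR had 6.12, 5.92 and 6.19 against 7.06, 7.03 and 7.52 CPM and did not pass (adjusted p = 0.756).

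These enzymes differed between the medium dose and other groups of library set 8. Against the high dose 6 of 16890 genes passed (0.0355%), 4 lower (0.0237%) and 2 higher (0.0118%) at the medium dose. Without the 2 libraries that stand apart 31 of 17330 passed (0.179%), 10 higher (0.0577%) and 21 lower (0.121%). CYP1A1 was 3.103, 3.103 and 3.57 CPM at the high dose, above every medium-dose library, and the medium dose was lower by 1.61 ± 0.16 on the log2 scale (adjusted p = 2.41e-08). CYP1B1 was 81.4, 84.8 and 89.00 CPM at the high dose, again without overlap, with the medium dose lower by 0.53 ± 0.06 (adjusted p = 3.00e-06). ALDH3A1, an aldehyde dehydrogenase gene, and AKR1B10, an aldo-keto reductase gene, were lower by 0.42 ± 0.07 and 0.41 ± 0.08 (adjusted p = 0.00798 and 0.0382). Against the vehicle, the medium dose differed in these genes by 0.08 ± 0.07 and -0.02 ± 0.08 (adjusted p = 0.903 and 0.984). The intestinal annexin gene ANXA13 and the goblet cell gene BCAS1 were higher at the medium than at the high dose, by 0.39 ± 0.08 and 0.27 ± 0.05 (adjusted p = 0.0349 and 0.0305). CYP1A1 and CYP1B1 passed against the high dose whichever of these 6 libraries was left out. BCAS1 and AKR1B10 passed in none of those fits (adjusted p up to 0.447 and 0.507), ANXA13 passed only without medium dose replicate 2 (up to 0.649), and ALDH3A1 was lost without medium dose replicate 1 or 3 or high dose replicate 1 (up to 0.209).

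Against Soshiho-tang at the same 100 µg/mL, 3 of 16890 genes passed (0.0178%), all lower with Yijin-tang, and 4 of 17330 (0.0231%), again all lower, without the 2 libraries that stand apart. Soshiho-tang gave 4.74 and 3.99 CPM of CYP1A1 and 105 and 108 CPM of CYP1B1, both above every Yijin-tang medium-dose library. The differences were -2.03 ± 0.16 and -0.85 ± 0.07 (adjusted p = 4.86e-11 and 4.86e-11). ALDH1A3 differed by -0.48 ± 0.07 (adjusted p = 0.000677, and 0.112 without Soshiho-tang replicate 2), at 45.5 and 43.7 CPM with Soshiho-tang. For the chemokines no difference between the decoctions passed: that of CXCL1 was 0.52 ± 0.21 (adjusted p = 1) and that of CCL20 0.86 ± 0.37 (adjusted p = 1), with Soshiho-tang at 9.53 and 9.04 and 0.901 and 0.813 CPM. With only 2 Soshiho-tang libraries this does not show that the decoctions act alike on these genes.

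**Figure D3:**
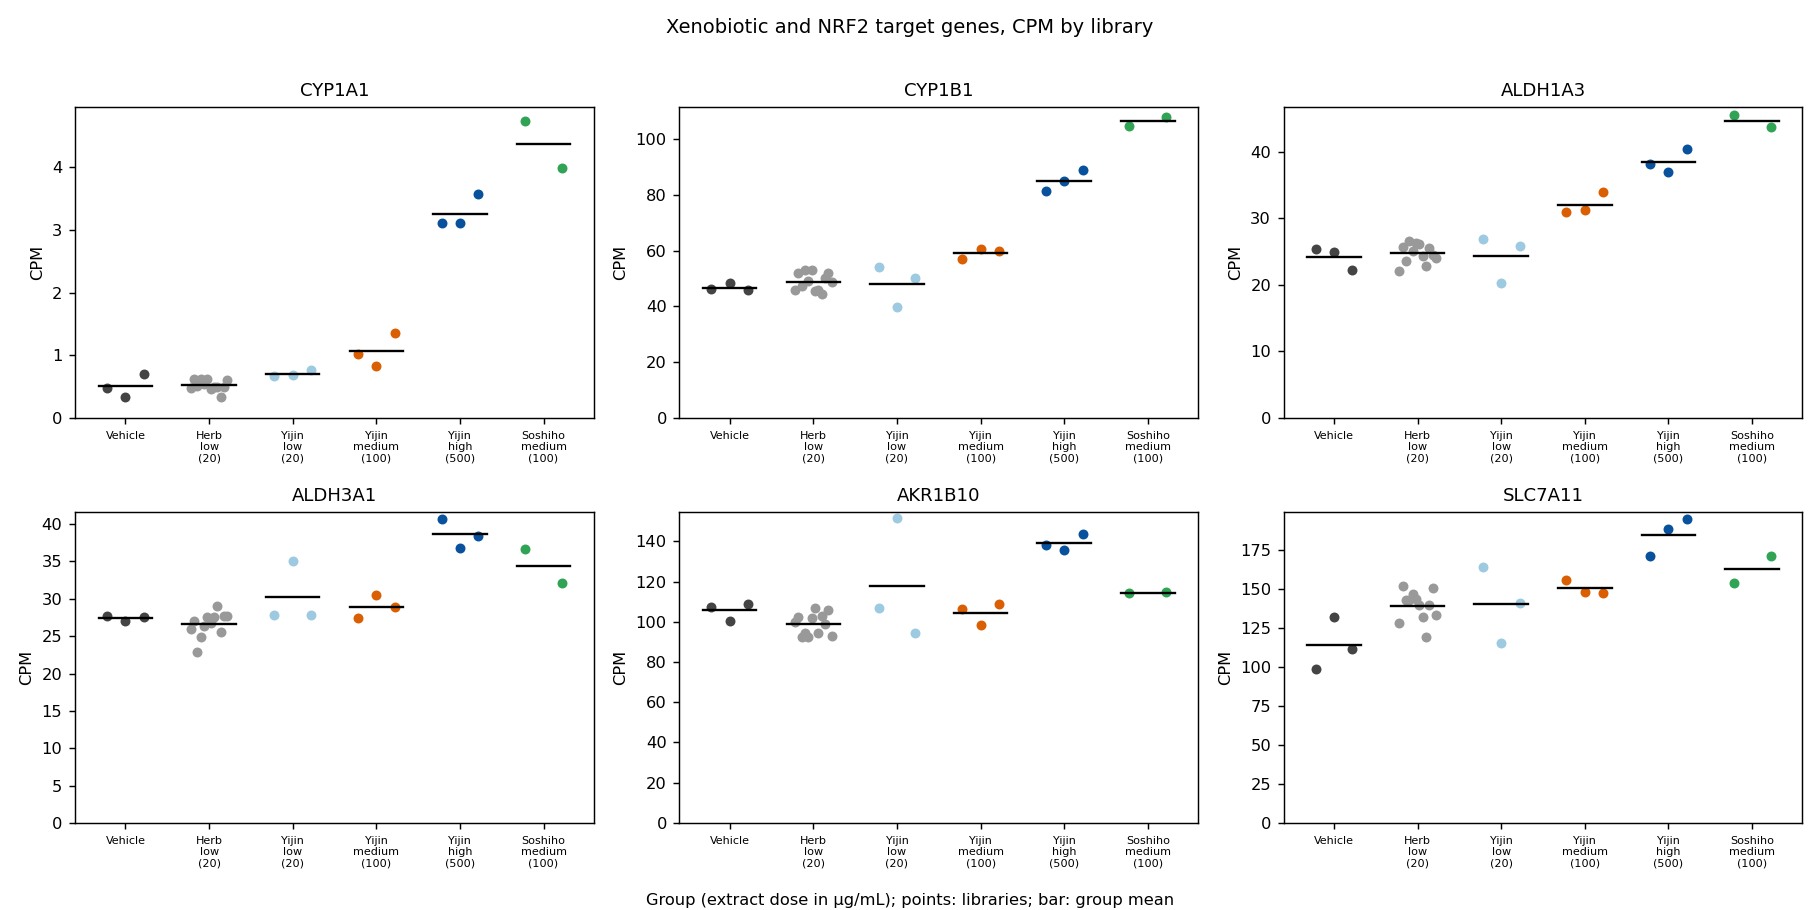
CPM (vertical axes, linear from 0) of 6 xenobiotic or NRF2 target genes by group (horizontal axes), each point 1 library and each bar the group mean. CYP1A1 lies at 0.832 to 1.36 CPM at the medium dose, between the vehicle (0.337 to 0.696 CPM) and the high dose (3.10 to 3.57 CPM).

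NRF2, which senses oxidants and electrophiles, has targets in glutathione synthesis and detoxification. SLC7A11, the cystine importer, was the 1 of 43 tested NRF2 targets that rose (median of the list -0.01). It measured 98.5, 132 and 111 CPM in the vehicle and 155, 148 and 147 CPM at the medium dose (0.40 ± 0.10, adjusted p = 0.0462), and the call was kept only when vehicle replicate 2 was the library left out (adjusted p up to 0.302 otherwise). GCLC, the catalytic subunit of glutathione synthesis, came next with 0.21 ± 0.05 (adjusted p = 0.0586), and GCLM, its modifier subunit, had 0.24 ± 0.08 (adjusted p = 0.338). The quinone reductase gene NQO1 was 478, 482 and 489 CPM in the vehicle and 467, 473 and 487 CPM at the medium dose (adjusted p = 0.983). Without the 2 libraries that stand apart 6 of the list passed, all higher (2.33% over all genes). Against the herb low doses none of the 43, SLC7A11 included, passed (median 0.02), and 1 was higher without those 2 libraries. Against the high dose, 1 member was lower at the medium dose, and 36 of 43 differences were negative (median -0.11, against 8202 of 16890 negative over all genes).

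Genes of heat shock chaperones fell. Of 19 tested, 6 fell and none rose, against 0.195% and 0.225% over all genes. Of the 19 differences 16 were negative (median -0.18, range -0.47 to 0.12), while 8337 of 16890 were positive over all genes. DNAJB1, a cochaperone of HSP70 (ENSG00000132002, chromosome 19, 14514770 to 14529770), measured 107, 111 and 116 CPM in the vehicle and 77.7, 77.7 and 86.5 CPM at the medium dose. It fell by 0.47 ± 0.05 on the log2 scale (adjusted p = 9.36e-08), and its groups were far apart. HSPA8, the constitutive HSP70 (ENSG00000109971, chromosome 11, 123057489 to 123063230), measured 2834, 3025 and 3200.0 CPM against 2309, 2381 and 2372 CPM and fell by 0.36 ± 0.05 (adjusted p = 2.35e-05). HSPA1A and HSPA1B, near-identical inducible HSP70 genes whose reads may be split uncertainly, fell by 0.28 ± 0.06 and 0.30 ± 0.05 (adjusted p = 0.0272 and 0.00134). HSPH1, an HSP110 nucleotide exchange factor, and CHORDC1, an HSP90 cochaperone, fell by 0.30 ± 0.06 and 0.34 ± 0.07 (adjusted p = 0.00677 and 0.00861). The count of 6 was 3 without vehicle replicate 2 or without vehicle replicate 3, and 2 when only these 2 groups were fitted. DNAJB1 and HSPA8 passed in every one of these fits. HSPA1A, HSPA1B and HSPH1 were lost without vehicle replicate 3, and HSPA1A, HSPH1 and CHORDC1 without vehicle replicate 2, with adjusted p up to 0.138, 0.0543, 0.0805 and 0.117 for HSPA1A, HSPA1B, HSPH1 and CHORDC1. HSPA1A was also lost without any 1 medium-dose library, and CHORDC1 without medium dose replicate 2 or 3.

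Against the herb low doses none of the 19 chaperones passed in edgeR's test, and the median was -0.01. At an unadjusted p under 0.05 in that test was 1 of them, against 805 of 16890 over all genes. DNAJB1 lay from 80.9 to 89.8 (median 85.6) CPM in those libraries and HSPA8 from 2307 to 2571 (median 2438) CPM, and 1 medium-dose library of DNAJB1 and all 3 of HSPA8 lay within that range. The differences were -0.09 ± 0.04 and -0.05 ± 0.04 (adjusted p = 0.98 and 1). The vehicle, set against the same herb libraries, was higher in 6 of the 19, by 0.38 ± 0.04 for DNAJB1 and 0.31 ± 0.04 for HSPA8 (adjusted p = 5.66e-08 and 1.14e-05). That comparison, added after the values were seen, called 45 of 16890 genes (0.266%), 24 of them higher in the vehicle (0.142%). Whether the chaperone falls belong to the extract or to the vehicle set cannot be told apart. CCDC117 and JMJD6, the latter a nuclear hydroxylase gene, are given in the same way: they fell by 0.47 ± 0.07 and 0.43 ± 0.07 against the vehicle (adjusted p = 1.49e-04 and 3.55e-04), and differed by -0.11 ± 0.06 and -0.15 ± 0.06 from the herb low doses (adjusted p = 1 and 0.775).

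**Figure D4:**
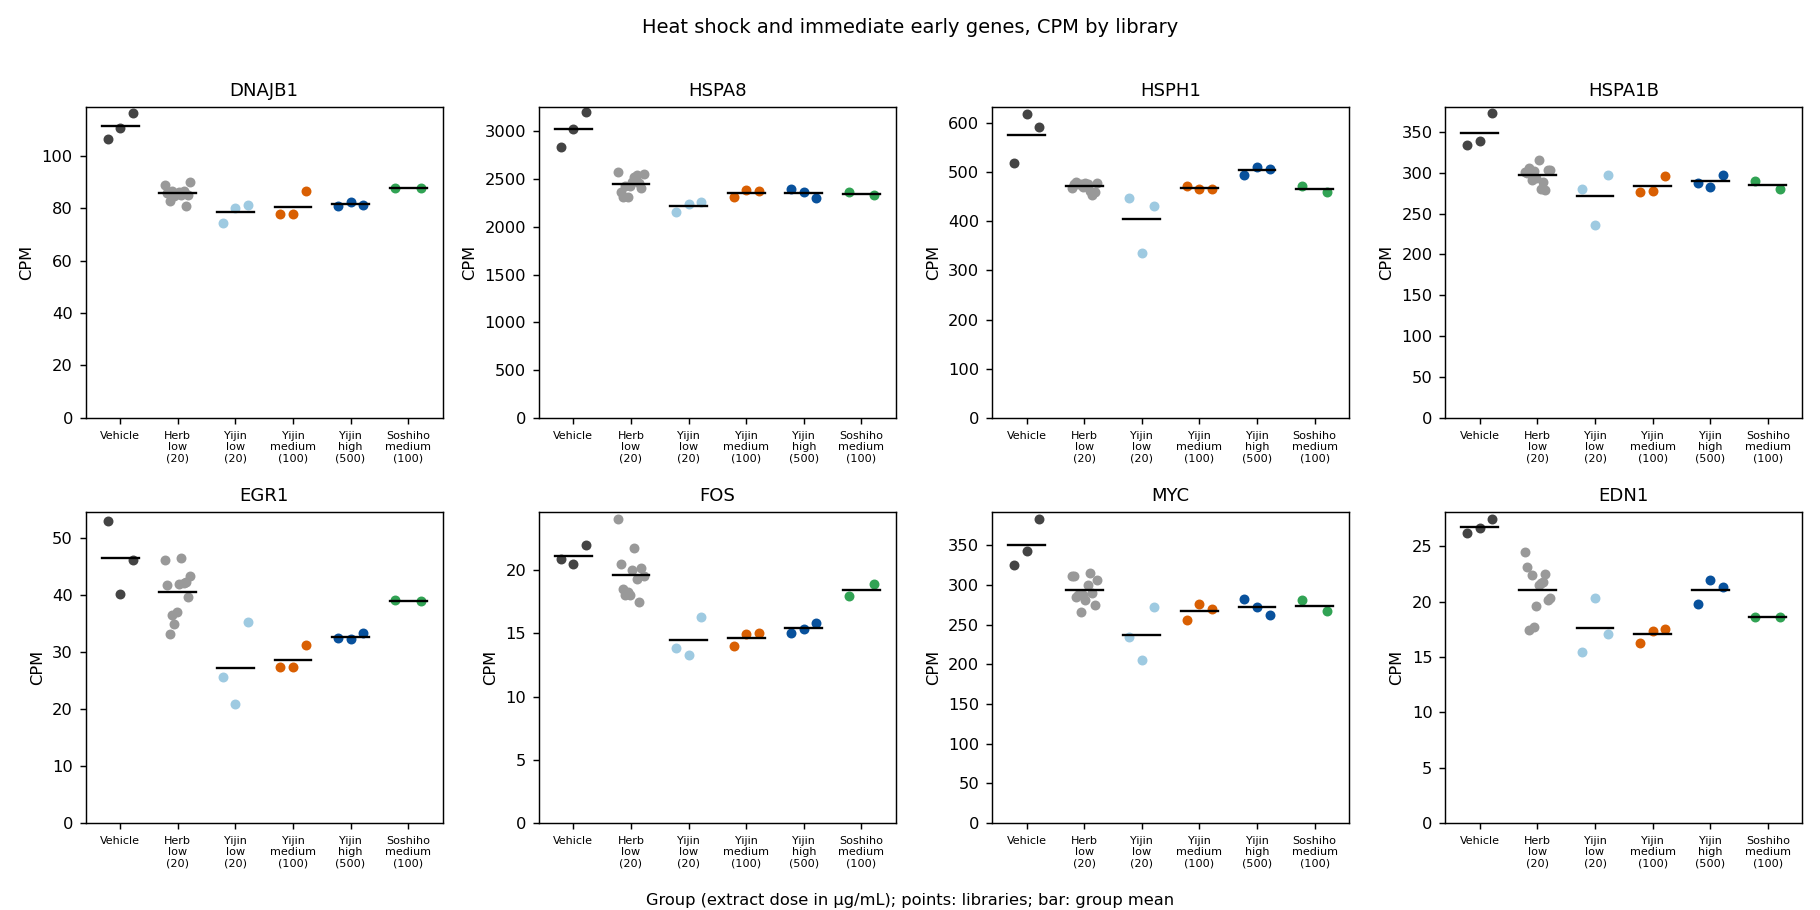
CPM (vertical axes, linear from 0) of 4 heat shock genes and 4 early response genes by group (horizontal axes), each point 1 library and each bar the group mean. In the chaperone panels the vehicle stands above every other group, with DNAJB1 at 107 to 116 CPM against 80.9 to 89.8 CPM in the herb low-dose libraries, while FOS at the medium dose (13.98 to 15.03 CPM) lies below both.

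Immediate early and feedback genes of the MAPK pathway fell in 4 of 37 tested members and rose in none. Over all genes 0.195% fell and 0.225% rose. Of the 37 differences 29 were negative (median -0.13), while 8337 of 16890 were positive over all genes. EGR1, a zinc finger transcription factor (ENSG00000120738, chromosome 5, 138465490 to 138469315), measured 52.96, 40.2 and 46.2 CPM in the vehicle and 27.4, 27.4 and 31.2 CPM at the medium dose and fell by 0.70 ± 0.13 (adjusted p = 0.00371). FOS, the AP-1 subunit gene, measured 20.9, 20.5 and 21.99 against 13.98, 14.9 and 15.03 CPM and fell by 0.53 ± 0.11 (adjusted p = 0.00896). MYC, a growth regulator, measured 325, 343 and 383 against 256, 276 and 269 CPM and fell by 0.39 ± 0.08 (adjusted p = 0.00677). BTG2, an antiproliferative gene, fell by 0.31 ± 0.07 (adjusted p = 0.0398). No medium-dose library of these 4 genes reached the vehicle range. The count of 4 was 0 without medium dose replicate 1, 1 without vehicle replicate 3 and 2 without vehicle replicate 1, and the highest adjusted p values for EGR1, FOS, MYC and BTG2 in those fits were 0.0595, 0.132, 0.141 and 0.462. BTG2 was also lost without medium dose replicate 2 or 3. The count was 7 in DESeq2 and 10 without the 2 libraries that stand apart, where 2.09% fell over all genes.

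Of the early genes, 3 were also lower than the herb low doses. EGR1 lay from 33.2 to 46.5 (median 41.8) CPM there and FOS from 17.5 to 24.1 (median 19.4) CPM, above all medium-dose libraries, with differences of -0.49 ± 0.11 and -0.42 ± 0.09 (adjusted p = 0.0259 and 0.0166). BTG2 differed by -0.27 ± 0.06 (adjusted p = 0.0259), and MYC by -0.13 ± 0.06 (adjusted p = 0.988). The calls of EGR1, FOS and BTG2 against the herb low doses were lost without any 1 of the 3 medium-dose libraries, and that of BTG2 also without Zizyphi Semen replicate 3 (adjusted p up to 0.328, 0.287 and 0.489). The vehicle differed from the herb low doses by 0.20 ± 0.10, 0.11 ± 0.08, 0.04 ± 0.06 and 0.26 ± 0.06 for EGR1, FOS, BTG2 and MYC, and only MYC passed (adjusted p = 0.0488). Other members of the family did not pass against the vehicle: JUN had -0.29 ± 0.09 (adjusted p = 0.24), the ERK phosphatase gene DUSP6 -0.29 ± 0.07 (adjusted p = 0.0712) and the zinc finger gene KLF6 -0.47 ± 0.12 (adjusted p = 0.082).

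Other falls took in single genes of signalling and transcription. EDN1, the endothelin precursor gene, fell: it measured 26.3, 26.6 and 27.5 CPM in the vehicle against 16.3, 17.4 and 17.5 CPM, lower by 0.65 ± 0.09 (adjusted p = 4.08e-05), and -0.30 against the herb low doses (adjusted p = 0.11). LINC00261, a long noncoding RNA, fell by 0.49 ± 0.09 against the vehicle and was lower by 0.44 ± 0.07 than the herb low doses (adjusted p = 0.000983 and 2.74e-04). RNF19B, a ubiquitin ligase gene, fell by 0.41 ± 0.06 (adjusted p = 2.35e-05). RNF19B differed from the herb low doses by -0.11 ± 0.05 (adjusted p = 0.891), and the vehicle was above those libraries by 0.30 ± 0.04 for RNF19B and 0.35 ± 0.07 for EDN1 (adjusted p = 2.19e-04 and 0.0208). EDN1, LINC00261 and RNF19B passed against the vehicle in all 6 fits that left out 1 library. ZBTB10 and SP6, zinc finger transcription factor genes, fell by 0.54 ± 0.13 and 0.42 ± 0.08, and BANP, a nuclear matrix protein gene, by 0.41 ± 0.09 (adjusted p = 0.0481, 0.00431 and 0.0159). ZBTB10 was also lost without vehicle replicate 1 or 2 or medium dose replicate 3, and BANP without vehicle replicate 2 or medium dose replicate 2. Each of these 3 calls was lost without vehicle replicate 3 and without medium dose replicate 1 (adjusted p up to 0.497, 0.132 and 0.171). Of 20 tested Wnt target and stem cell genes, MYC and SOX9 fell, SOX9 by 0.31 ± 0.07 (adjusted p = 0.0309), and of 22 p53 targets ZMAT3 and BTG2 fell, ZMAT3 by 0.37 ± 0.08 (adjusted p = 0.0124). The MAPK phosphatase gene DUSP8 fell by 0.37 ± 0.09 and PHLDA1, a gene induced by growth factors, by 0.25 ± 0.05 (adjusted p = 0.0289 and 0.0164). None of ZBTB10, SP6, BANP, SOX9, ZMAT3, DUSP8 and PHLDA1 passed against the herb low doses, with differences of -0.34, -0.27, -0.11, -0.08, -0.15, -0.15 and -0.06. The vehicle was higher than those libraries in BANP and PHLDA1, by 0.30 ± 0.07 and 0.19 ± 0.04 (adjusted p = 0.0353 and 0.0349). The calls of SOX9, ZMAT3, DUSP8 and PHLDA1 were each lost in at least 4 of those 6 fits, among them without vehicle replicate 3 and without medium dose replicate 1 (adjusted p up to 0.27, 0.135, 0.226 and 0.175).

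CLK1, CCNL2 and MCM7 were among the genes with smaller rises. CLK1, a kinase of splicing factors, measured 32.4, 35.3 and 35.1 CPM against 49.3, 46.2 and 47.8 CPM (0.48 ± 0.11, adjusted p = 0.0375), and CCNL2, a cyclin linked to splicing, 117, 107 and 92.8 against 129, 129 and 136 CPM (0.32 ± 0.07, adjusted p = 0.0201). Against the herb low doses they differed by 0.11 ± 0.09 and -0.02 ± 0.05 (adjusted p = 1 and 1). In CCNL2 the vehicle differed from the herb low doses by -0.34 ± 0.06 (adjusted p = 0.0013). MCM7, part of the replicative helicase, was the 1 of 34 tested S phase genes that rose, by 0.18 ± 0.04 (adjusted p = 0.0208). In that list 26 of 34 differences were positive (median 0.07), against 8337 of 16890 over all genes. Without the 2 libraries that stand apart 7 rose (2.33% over all genes). Against the herb low doses none of the 34 passed, with or without those 2 libraries (median 0.05). CLK1 did not pass when any 1 of the 6 libraries was left out, CCNL2 not without vehicle replicate 3 or medium dose replicate 1 or 3, and MCM7 not without vehicle replicate 2 or 3 or medium dose replicate 1 or 3 (adjusted p up to 0.226, 0.324 and 0.139).

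Some lists leaned one way without a called member. In the interferon response list 0 of 44 genes passed in edgeR's test and 0 in DESeq2. At an unadjusted p under 0.05 in edgeR's test were 16 of the 44, against 1325 of 16890 over all genes. Of the 44 differences, 39 were positive (median 0.17, 8337 of 16890 positive over all genes). In 18 the medium-dose libraries all exceeded the vehicle, which over all genes was so for 9.06%. MX1, an antiviral GTPase gene, had 3.71, 2.997 and 3.24 against 6.78, 4.81 and 4.51 CPM (adjusted p = 0.3), and IFI44L, an interferon-induced gene, 0.136, 0.225 and 0.383 against 0.808, 0.693 and 0.582 CPM (adjusted p = 0.323). Without the 2 libraries that stand apart 5 of the list were higher (2.33% over all genes), and 2 were when only these 2 groups were fitted. Against the herb low doses the median was 0.09 with none called, and 3 were higher without those 2 libraries (0.600% over all genes). The vehicle's own median difference from the herb low doses was -0.11 in this list. Cytosolic ribosomal protein genes were negative in 77 of 78 (median -0.15) and the 13 mitochondrially encoded genes in all 13 (median -0.31). None was called (0 and 6 at an unadjusted p under 0.05). Without those 2 libraries, 13 and 2 were lower than the vehicle (2.09% over all genes). Against the herb low doses these medians were -0.04 and 0.06. MT-ND1, a subunit of complex I, measured 6577 ± 1543 CPM (SD, n = 3) in the vehicle and 4655 ± 366 CPM at the medium dose.

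**Figure D5:**
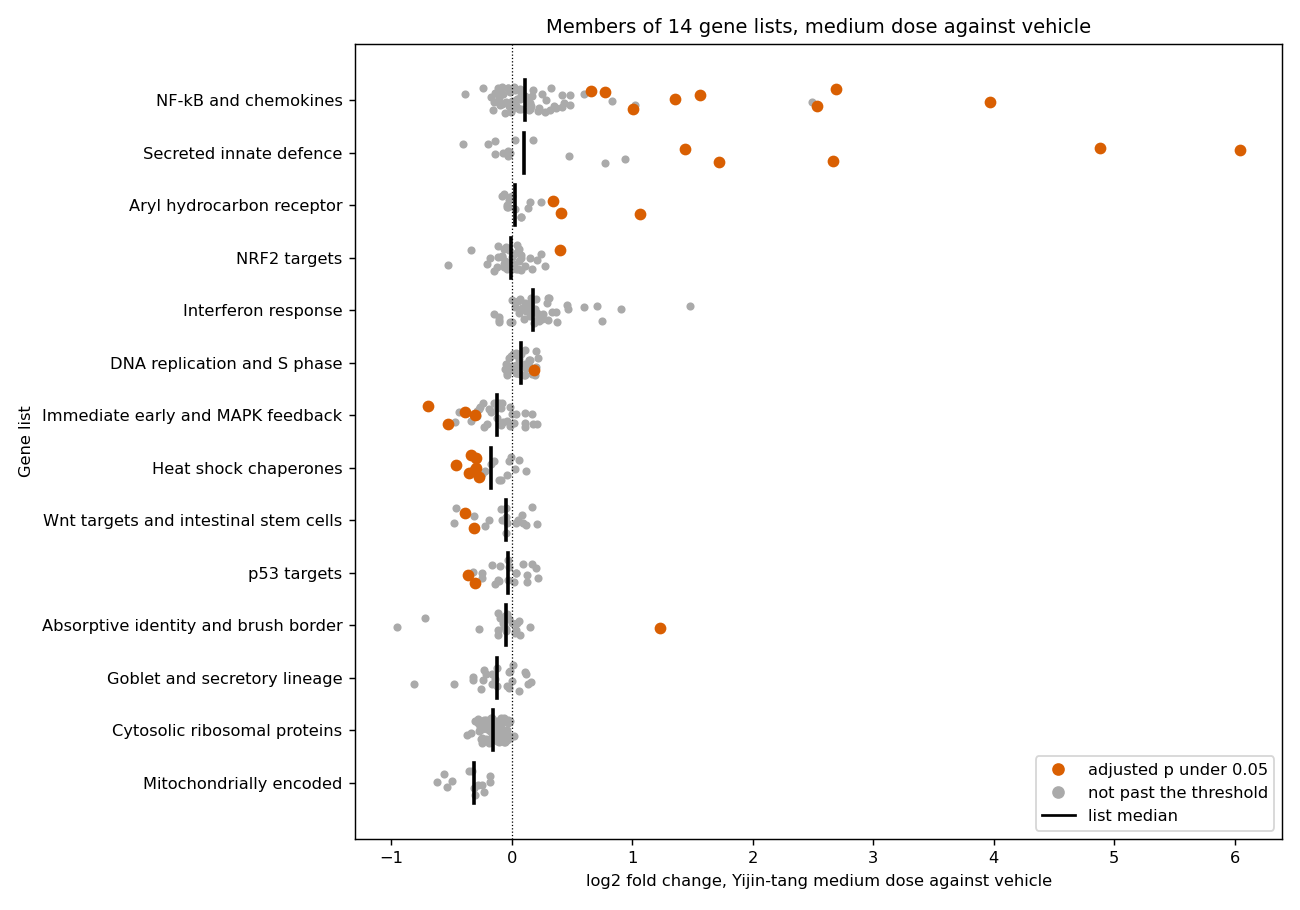
Log2 fold change of the medium dose against the vehicle (horizontal axis) for the tested members of 14 gene lists (vertical axis), each point 1 gene, coloured where the adjusted p was under 0.05, with the list median as a bar. The chemokine and secreted defence lists reach past 2 on the right, and the called chaperones lie between -0.47 and -0.28.

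Levels at the other doses of Yijin-tang are given for the genes above. CXCL1 was 6.35, 12.4 and 5.78 CPM at the low dose, where the high value belongs to the library that stands apart, and 19.6, 21.3 and 16.3 CPM at the high dose. The medium dose differed from the high dose by -0.52 ± 0.18 (adjusted p = 1). A comparison of the medium with the low dose, added after the values were seen, left out the 2 libraries that stand apart, low dose replicate 2 among them. Of the 16888 genes shared with the main fit, 2 (0.0118%) passed, with p adjusted over the 17330 genes of the fit without those libraries. Genes outside the main fit were not counted. The 2 were CXCL1, higher at the medium dose by 1.14 ± 0.15, and PI3, by 0.76 ± 0.12 (adjusted p = 5.23e-05 and 0.00251). C3 was 0.857, 0.392 and 0.637 CPM at the low and 1.63, 2.16 and 1.61 CPM at the high dose, so the medium and high doses overlapped. PIGR was 1.52, 1.28 and 1.49 CPM and 2.06, 2.07 and 2.32 CPM, with a difference from the high dose of 0.30 ± 0.28 (adjusted p = 1). DNAJB1 was 74.4, 80.2 and 81.2 CPM at the low and 81.00, 82.3 and 81.1 CPM at the high dose, next to 77.7, 77.7 and 86.5 CPM at the medium dose, and EGR1 was 25.5, 20.8 and 35.3 and 32.5, 32.3 and 33.3 CPM. In the chaperones and early genes named here no difference between the medium and high dose passed, with DNAJB1 at -0.02 ± 0.05 and EGR1 at -0.19 ± 0.13 (adjusted p = 1 and 1).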

How the data were processed

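Messenger RNA was sequenced from HT29 cells, and the values the authors deposited are expected counts, not normalized, for 60675 gene IDs in 60 libraries. RSEM 1.3.3, STAR 2.7.3a, Trim Galore 0.6.5, FastQC 0.11.9 and build GRCh38 are named in the submitters' processing notes, and the annotation release and strand setting are not given in the sources used here. Whole numbers, to within 1e-09, made up 89.9% of them. Symbols were matched for 56558 IDs, and gene positions come from GENCODE release 29.

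Expected counts were rounded. Genes were filtered with filterByExpr and scaled by TMM in edgeR 4.0.16 (R 4.3.3), and 1 quasi-likelihood model with the group as its term was fitted to 54 libraries of the 19 groups with at least 2 libraries (biological coefficient of variation 9.71%, and 4.76% without the 2 libraries that stand apart). Calls needed an adjusted p (Benjamini-Hochberg, over all genes tested) under 0.05, and every adjusted p in the text is from this test, refitted where libraries were left out. Errors are SE for log2 changes and SD for CPM. The p-values measure only the spread between libraries, pooled over the 54 in the fit, which may be technical. Replicates differed more in the vehicle than at the medium dose. The chi-square per gene between 2 replicates was 12.8 to 20.2 in the vehicle and 3.31 to 5.07 at the medium dose. Simulated data for this comparison had 200 changed genes of 16890, drawn from those above 1 CPM in the vehicle. The simulation used the fitted spread, 1 value per gene for both groups, and held no difference between library sets. It therefore does not cover the wider spread of the vehicle replicates. The share recovered was 76.1% at 1.5-fold, 92.5% at 2-fold and 97.0% at 4-fold, with 5.35% false calls. Of the 38 called rises, 11 averaged under 1 CPM in the vehicle, a level the simulation does not cover. Named genes were the 15 largest called rises and the 15 largest falls whose mean reached 1 CPM in either group, called members of the 28 gene lists, and up to 6 members with the smallest p of lists described. Clone, antisense and noncoding names could be passed over, and AKR1B10, ALDH3A1, CCNL2, CLK1, CXCL5, ICAM1, IL4I1, JUN, LCN2, MAP3K8, NFKB1, NFKB2, NFKBIA, NQO1, PHLDA1, RELB and TNFAIP3 were named outside it, after their values were seen. The members and lists were chosen with earlier results of these data known. Alternatives were DESeq2 1.42.0, RLE scaling, no filter on low counts, only the groups compared, no set-apart libraries, the replicate number as a block, and each library left out.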

Additional observations from a re-analysis of the deposited data

Results flagged for a closer look

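The medium dose of Yijin-tang differed in 6 genes from the high dose of the same extract and in 3 genes from Soshiho-tang at the same dose, by edgeR's quasi-likelihood test of the difference itself. Against the high dose, CYP1A1 differed by -1.61 on the log2 scale (adjusted p = 2.41e-08), CYP1B1 by -0.53 (3.00e-06), ALDH3A1 by -0.42 (0.00798) and AKR1B10 by -0.41 (0.0382), all lower at the medium dose. BCAS1 was higher by 0.27 (0.0305) and ANXA13 by 0.39 (0.0349). With 1 of the 6 libraries left out, CYP1A1 and CYP1B1 passed each time, BCAS1 and AKR1B10 never, ANXA13 only without medium dose replicate 2, and ALDH3A1 not without medium dose replicate 1 or 3 or high dose replicate 1. Against Soshiho-tang, CYP1A1 differed by -2.03 (4.86e-11), CYP1B1 by -0.85 (4.86e-11) and ALDH1A3 by -0.48 (0.000677), all lower with Yijin-tang, with ALDH1A3 at an adjusted p of 0.112 without Soshiho-tang replicate 2.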

How the results depend on the processing

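No direction of the 71 called genes reversed in any of the 12 alternatives. Of the 71, 70 passed with RLE scaling, 68 in DESeq2, 68 with the replicate number as a block, 71 without the 2 libraries that stand apart, 29 with no filter on low counts and 26 when no other group entered the fit (DESeq2 and this last fit gave SAA1 no value). With 12 alternatives each, 17 genes passed in all, 11 higher and 6 lower. Against the vehicle the count of 71 became 125 in DESeq2, 40 with no filter and 767 without the 2 libraries, and ran from 26 to 69 with 1 library left out. Against the high dose the count of 6 became 12 in DESeq2 and 31 without the 2 libraries, and ran from 2 to 4 with 1 library left out. Against Soshiho-tang the count of 3 became 6 with only the groups compared and 5 in DESeq2, and ran from 3 to 5 with 1 library left out, where a lone Soshiho-tang library was assumed to vary like the other groups. Against the herb low doses the count of 35 became 153 without the 2 libraries and 77 with only the groups compared, and ran from 23 to 37 with 1 library left out. The replicate block gave 78, 5, 3 and 38 calls in these comparisons. Correlations of same-numbered medium-dose and vehicle libraries were -0.0579, 0.0400 and -0.138. Libraries of different number were not set beside them, so whether the numbers pair the libraries was not tested. Genes under 1 CPM rest on few counts, and depth limits what can be said of them.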
